A study of Mus musculus with 2 samples.

Results

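Chromatin accessibility along the 4 mouse Hox gene clusters was examined in late retinal progenitor cells (late RPCs), the dividing cells of the newborn retina that give rise mainly to rods, bipolar cells and Müller glia. Members were the ATAC-seq peaks whose summit lay between the first and the last of 38 listed Hox genes of a cluster, with 10 kb added on each side. The list does not hold every Hox gene of the clusters, and counts of Hox genes below are of listed genes. Of 242100 peaks in both libraries, 98 met this rule, 48 of 117165 in control and 50 of 124935 in Ngn3-OE. When overlapping peaks of both libraries were joined, they formed 62 distinct regions, which are numbered here from left to right along each chromosome. Mouse pups of postnatal day 1 were electroporated in vivo, and the 2 groups differed in the plasmid, a control plasmid or one that overexpressed Ngn3 (Neurog3), a proneural basic helix-loop-helix transcription factor. GFP+ cells of both groups were sorted on day 2 after electroporation, and each group had 1 library, made from 50000 cells. The sort collected the electroporated cells of the retina whatever their type, so each library was a mixture. With 1 library per group there was no replicate check, no test was made, and the intervals given below cover counting error only.

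Hox genes encode homeodomain transcription factors that pattern the body from hindbrain to tail. Their order along each chromosome matches the order in which they are used along that axis, with paralog group 1 at the anterior end and group 13 at the posterior end. They bind DNA together with the TALE homeodomain proteins of the Pbx, Meis and Pknox families, are activated by retinoic acid in the embryo, and are held silent outside their domains by Polycomb group proteins, which bind CpG-rich DNA. The eye arises from the forebrain, in front of the Hox domains.

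Each peak is described by its summit tags, the number of sequenced tags piled up at the summit, which was worked out from the deposited fold enrichment and p-value of the peak. It is also given its rank percentile in its own list by −log10 q, where 100 is the strongest peak. The median peak of each whole list held 9 tags.

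The Hox clusters held more peaks per length than the genome, and these peaks were of middling size in their lists. The density was 8.5 peaks per 100 kb in control and 8.8 in Ngn3-OE, against 4.30 and 4.58 over chromosomes 1 to 19, X and Y. Genes per length were not taken into account. The clusters hold 38 listed protein-coding and 46 noncoding genes in 565.0 kb, against 21938 and 16239 genes over those chromosomes. Median summit tags were 8 in control, with a range from 3 to 31, and 7 in Ngn3-OE, with a range from 4 to 26. The median rank percentile was 50.8 in control and 47.3 in Ngn3-OE, and no Hox peak ranked above 90.3 in control or above 85.5 in Ngn3-OE. In such pooled cells, a peak that is open in few cells and one that is less open in every cell cannot be told apart. The Hoxd cluster (chr2:74658310-74775142) had the most peaks per length, with 17 in each library. Of these, 8 in control and 9 in Ngn3-OE had a −log10 q of at least 5. The Hoxa cluster (chr6:52152417-52270880) had 10 peaks in control and 14 in Ngn3-OE, of which 9 and 10 passed that threshold. Among these stronger peaks Hoxd was thus not the densest cluster. The Hoxb cluster (chr11:96184316-96378256) had 13 in each library, and the Hoxc cluster (chr15:102911103-103046852) had 8 and 6. All coordinates are on mm10.

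**Figure D1:**
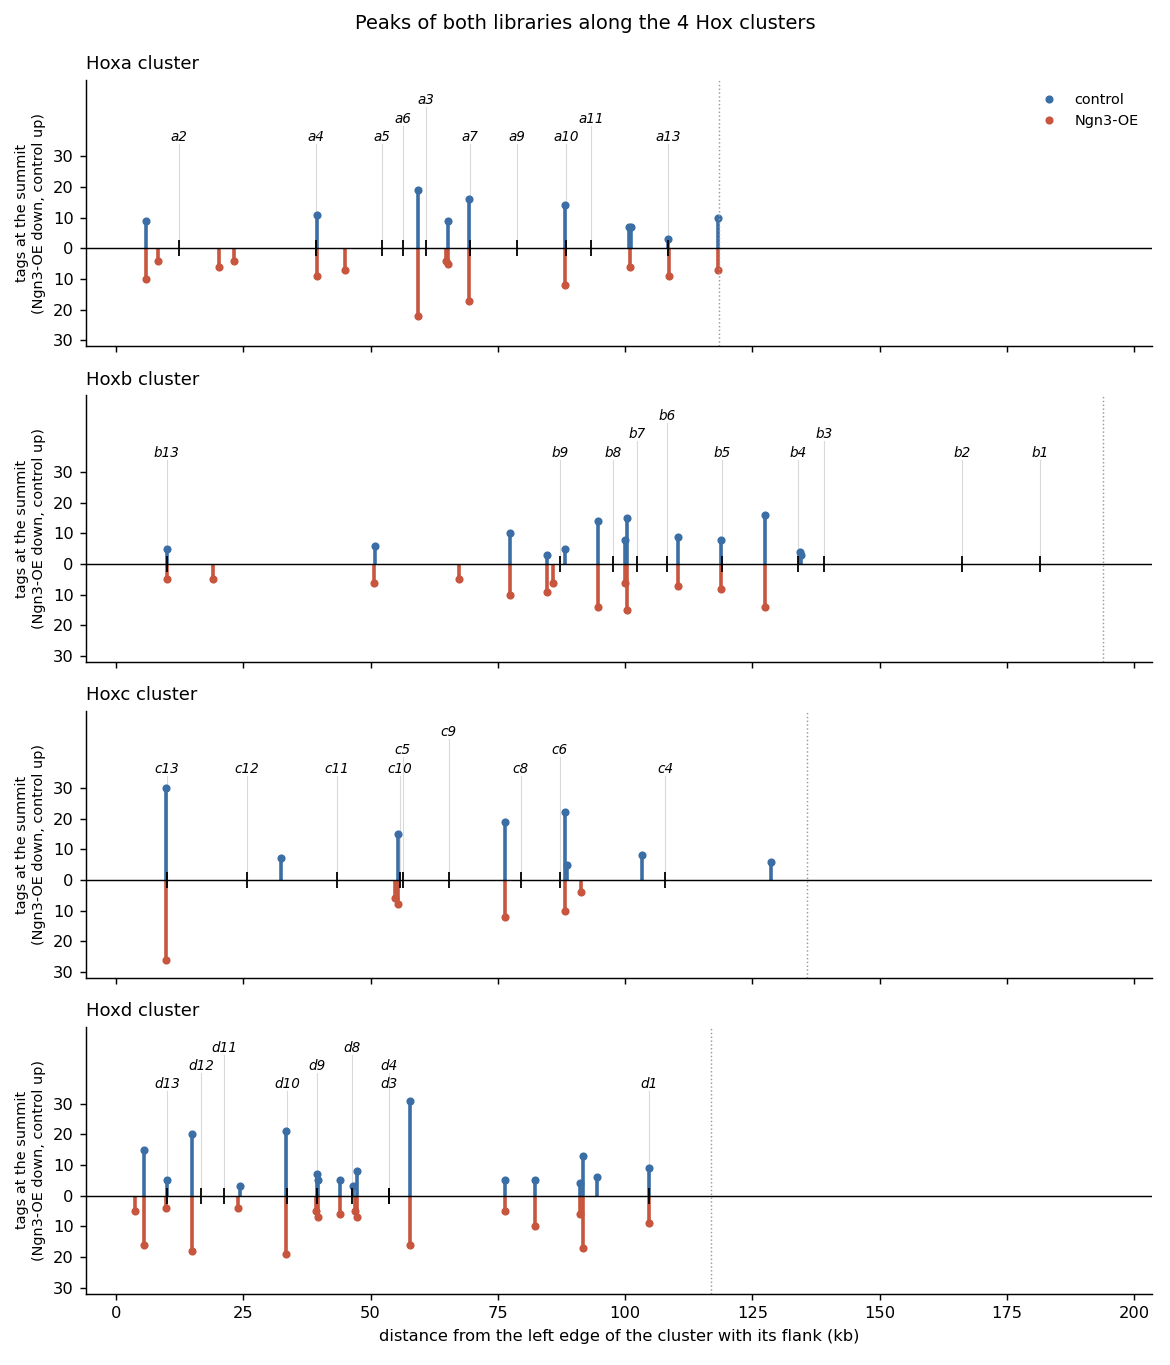
Summit tags of every peak of the 4 Hox clusters, control upwards and Ngn3-OE downwards, against the distance in kb from the left edge of the cluster with its 10 kb flank. Black ticks mark the outermost annotated start of each gene model (which for several genes, among them Hoxa3, Hoxa7, Hoxc5, Hoxc6, Hoxd3 and Hoxd4, lies kilobases from other starts of the gene), dotted lines mark the right edge, and no peak exceeds 31 tags in control or 26 in Ngn3-OE.

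The DNA under these peaks was rich in CpG dinucleotides. Median GC content in the 201 bp around the summit was 62.2% in control and 60.4% in Ngn3-OE, against 51.7% in each whole list. The median CpG count in that window was 14 in both libraries, against 3 in each whole list. More of the Hox peaks lay within 1 kb of a start site (54.2% and 54.0%, against 23.7% and 23.1%), and the CpG counts were not split by this. Several of the strongest peaks and 2 peaks that differed in tags between libraries are shown here as 101 bases centred on the control summit. They are on the plus strand of mm10, with every CpG in capitals, because Hox peaks held more CpG than the lists as a whole. Windows with bases of a UTR or a coding exon are among those not shown.
Hoxa region 7, chr6:52211697-52211797: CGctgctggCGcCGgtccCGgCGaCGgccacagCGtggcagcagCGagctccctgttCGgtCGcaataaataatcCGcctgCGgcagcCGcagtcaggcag
Hoxb region 9, chr11:96278896-96278996: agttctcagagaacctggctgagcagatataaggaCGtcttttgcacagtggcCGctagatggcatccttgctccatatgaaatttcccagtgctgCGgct
Hoxc region 1, chr15:102920862-102920962: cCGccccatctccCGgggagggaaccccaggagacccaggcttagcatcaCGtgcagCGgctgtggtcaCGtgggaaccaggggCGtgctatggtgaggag
Hoxc region 5, chr15:102987545-102987645: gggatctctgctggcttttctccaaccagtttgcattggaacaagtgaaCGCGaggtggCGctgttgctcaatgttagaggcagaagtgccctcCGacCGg
Hoxc region 6, chr15:102999318-102999418: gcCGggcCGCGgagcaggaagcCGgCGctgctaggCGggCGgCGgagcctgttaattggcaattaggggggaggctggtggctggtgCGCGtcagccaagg
Hoxd region 5, chr2:74673128-74673228: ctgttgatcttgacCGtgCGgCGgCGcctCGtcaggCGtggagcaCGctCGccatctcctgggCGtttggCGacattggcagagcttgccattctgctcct
Hoxd region 8, chr2:74691745-74691845: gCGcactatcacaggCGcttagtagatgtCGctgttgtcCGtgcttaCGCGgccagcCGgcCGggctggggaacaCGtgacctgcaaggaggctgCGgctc
Hoxd region 15, chr2:74715916-74716016: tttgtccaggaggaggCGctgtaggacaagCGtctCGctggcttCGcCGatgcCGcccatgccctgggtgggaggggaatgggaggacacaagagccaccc
Hoxb region 6, chr11:96268988-96269088: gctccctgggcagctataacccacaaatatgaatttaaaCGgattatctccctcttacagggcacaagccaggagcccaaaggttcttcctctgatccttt
Hoxd region 17, chr2:74740549-74740649: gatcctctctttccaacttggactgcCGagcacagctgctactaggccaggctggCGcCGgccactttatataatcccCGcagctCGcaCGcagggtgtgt
These 101-base windows held from 1 CpG in Hoxb region 6 to 13 in Hoxa region 7.

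CpG-rich DNA elsewhere in the genome carried far larger peaks. Over each whole list, peaks with at least 10 CpG in the 201-bp window had median summit tags of 22 in control and 21 in Ngn3-OE, with 22989 and 23689 such peaks. The 36 Hox peaks of that kind in control had a median of 8.5 tags, with a range from 3 to 31, and the 37 in Ngn3-OE had a median of 8 tags, with a range from 4 to 26. In the densest class, with 20 or more CpG, the medians were 7 tags for 11 Hox peaks against 23 for all peaks in control, and 8 for 10 Hox peaks against 23 in Ngn3-OE. At 5 to 9 CpG the values were closer, and 10 Hox peaks in each library had a median of 6.5 tags against 10 for all peaks in control and 9 in Ngn3-OE.

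**Figure D2:**
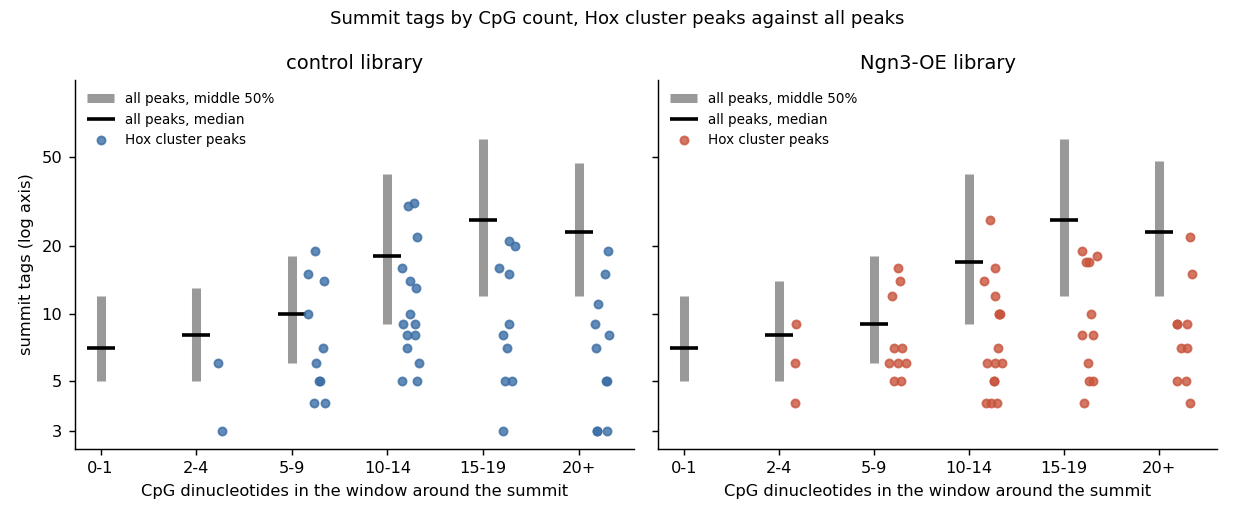
Summit tags on a log axis by the number of CpG in the 201 bp around the summit, in each library. Grey bars give the middle 50% and black lines the median of all peaks, coloured points are single Hox peaks (spread sideways for legibility), and in the class with 20 or more CpG the medians are 23 for all peaks in both libraries against 7 and 8 for the Hox peaks.

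Fewer Hox genes had a peak at a start site than protein-coding genes did on average. A peak summit lay within 1 kb of an annotated start site for 18 of 38 Hox genes in control (47.4%), while 64.7% of 21938 protein-coding genes had one. In Ngn3-OE it was 15 of 38 (39.5%) against 65.1%. Genes were set against others with a CpG-rich start, defined as at least 50% GC and an observed-to-expected CpG ratio of at least 0.6 in the 1 kb around it. Of 10794 such protein-coding genes, 95.8% had a start-site peak in control and 96.0% in Ngn3-OE, while of the 26 Hox genes with such a start 14 and 13 had one. Where a Hox gene had a peak, its strongest start-site peak held a median of 8 tags in each library, against 43 over all protein-coding genes with a peak and 51 over those with a CpG-rich start. These shares describe the lists, and a gene without a called peak may still have been open below the caller's threshold.

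**Figure D3:**
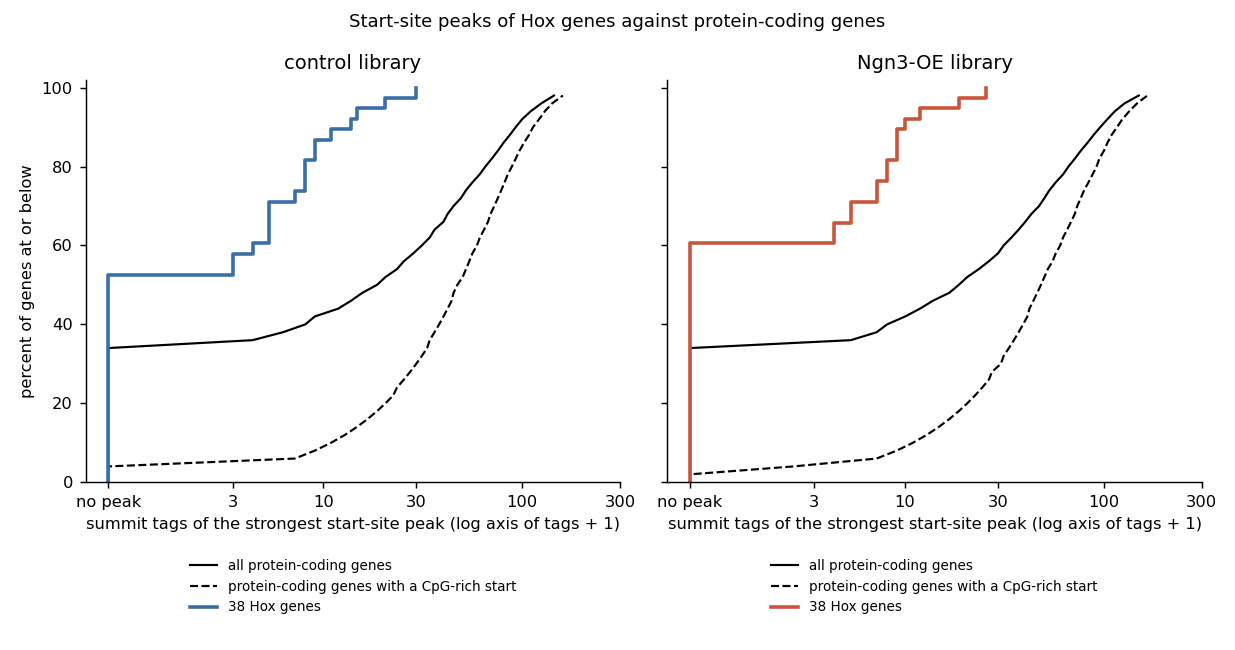
Cumulative percent of genes against the summit tags of the strongest start-site peak, on a log axis of tags + 1, for the 38 Hox genes (coloured), all protein-coding genes (solid black) and those with a CpG-rich start (dashed black). The Hox curve begins at the 20 genes with no peak in control and the 23 in Ngn3-OE and ends at 30 and 26 tags, where the black curves are still rising.

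Of the 38 Hox genes, 15 had a start-site peak in both libraries, 3 in control only (7.9%), 0 in Ngn3-OE only, and 20 in neither, where 1.13% of all protein-coding genes had one in control only and 1.52% in Ngn3-OE only. The 3 control peaks held 4, 8 and 5 tags, at Hoxb4, Hoxc5 and Hoxb9. Among peaks with a −log10 q of at least 5, the excess of control over Ngn3-OE was lost, with 11 genes in each library, 9 of them in both. Of the 38 genes, 2 had one in control only (Hoxa7 and Hoxc5) and 2 in Ngn3-OE only (Hoxa13 and Hoxd3). Over all protein-coding genes the shares were 1.23% in control only and 1.91% in Ngn3-OE only. With the starts of every annotated transcript, Hoxa7 (16 and 17 tags) and Hoxc5 (15 and 8 tags) had a peak past that threshold in both libraries. The listed anterior paralogs, groups 1 to 4, had a peak for 4 of 11 genes in control and 3 of 11 in Ngn3-OE. Hoxa4 had 11 tags in control and 9 in Ngn3-OE. Hoxd1 had 9 tags in each library. Hoxd3 had 5 tags in control and 10 in Ngn3-OE, at a summit 980 bp inside one of its transcripts in control. Hoxb4 had 4 tags in control and no peak in Ngn3-OE. The products of these genes act in the hindbrain and cervical spinal cord. The 7 listed anterior genes with no start-site peak in either library were Hoxa2, Hoxa3, Hoxb1, Hoxb2, Hoxb3, Hoxc4 and Hoxd4.

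The central paralogs, groups 5 to 8, act at the level of the neck and thorax and also had a peak for 4 of 11 genes in control and 3 of 11 in Ngn3-OE. Hoxa7 had 9 tags in control and 5 in Ngn3-OE at the starts of the basic annotation, but with the starts of every annotated transcript its strongest peak was Hoxa region 10, with 16 and 17 tags. Hoxb5 had 8 tags in each library. Hoxd8 had 8 tags in control and 7 in Ngn3-OE. Hoxc5 had 8 tags in control and no peak in Ngn3-OE, at a summit that was also 472 bp from the start of Mir615, the microRNA gene within Hoxc5. With the starts of every transcript it took the Hoxc10 peak, with 15 and 8 tags, and Hoxc6 took a control peak of 5 tags. Hoxa5, Hoxa6, Hoxb6, Hoxb7, Hoxb8, Hoxc6 and Hoxc8 had none in either library.

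The posterior paralogs, groups 9 to 13, pattern the lumbar to tail region, the limb and the genital bud, and had a peak for 10 of 16 genes in control and 9 of 16 in Ngn3-OE. Hoxc13, known for its role in hair and nail, carried the largest start-site peak of any Hox gene in either library, with 30 tags in control and 26 in Ngn3-OE at 191 and 179 bp upstream of its start. Hoxd10 followed, with 21 tags in control and 19 in Ngn3-OE, 129 bp upstream in both. Hoxc10 had 15 tags in control and 8 in Ngn3-OE. Hoxa10 had 14 tags in control and 12 in Ngn3-OE, with the summit in its UTR. The group 10 genes act together in setting the lumbar pattern of ribs and vertebrae. The 3 genes of the group, Hoxa10, Hoxc10 and Hoxd10, all had a start-site peak in both libraries. Of all protein-coding genes 64.7% had one in control and 65.1% in Ngn3-OE, so that 3 genes are too few to set the group apart. Hoxd9 had 7 tags in each library, and Hoxb13 had 5 in each. Hoxa13, which patterns the digits, had 3 tags in control and 9 in Ngn3-OE. Hoxb9 had 5 tags in control, 959 bp downstream of its start, and no peak in Ngn3-OE. Hoxd11 had 3 tags in control and 4 in Ngn3-OE, and Hoxd13 had 5 and 4. At Hoxd11 and Hoxd13 the peaks of the libraries did not overlap, with the Ngn3-OE summit upstream and the control summit downstream of the start. Hoxa9, Hoxa11, Hoxc9, Hoxc11, Hoxc12 and Hoxd12 had no peak in either library.

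**Figure D4:**
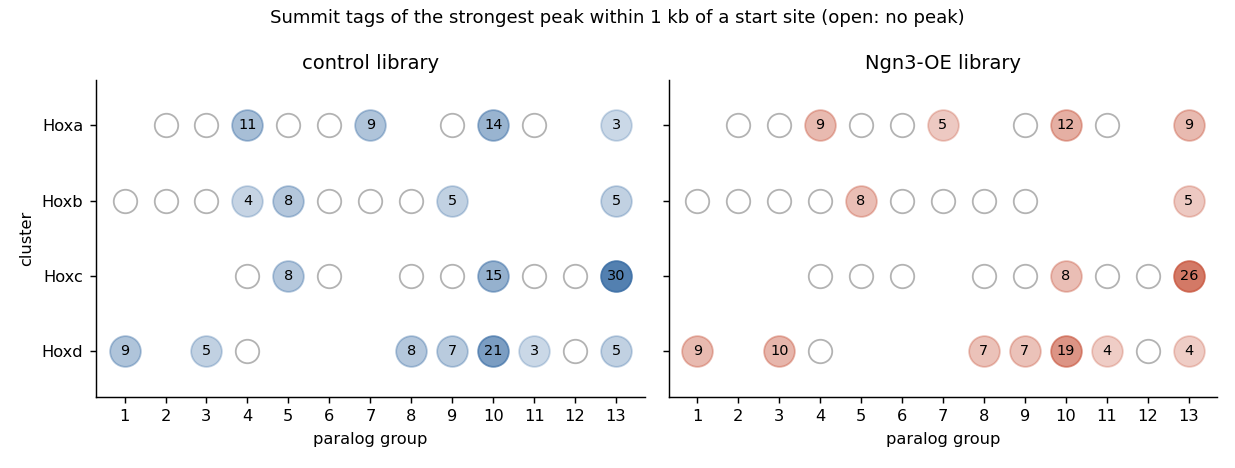
Summit tags of the strongest peak within 1 kb of a start site for each of the 38 Hox genes, by cluster and paralog group, in control (left) and Ngn3-OE (right). Open circles are genes with no such peak, colour depth follows the tags, and the largest values are 30 and 26 at Hoxc13 and 21 and 19 at Hoxd10.

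By cluster, Hoxd genes most often had a start-site peak, 7 of 9 genes in each library, and they were the same 7 genes. Of these, Hoxd11 and Hoxd13 had a −log10 q under 5 in both libraries, at peaks that did not overlap. Hoxd3 was under 5 in control. Listed Hoxa genes had 4 of 10 in each library, Hoxb genes 4 and 2 of 10, and Hoxc genes 3 and 2 of 9. Several gene models overlap or share a start (Hoxa3, Hoxc5, and Hoxd3 with Hoxd4), so a peak at one of their starts cannot be assigned to 1 gene. With the starts of every annotated transcript, 19 Hox genes (50%) had a peak in control and 16 (42.1%) in Ngn3-OE, against 66.5% and 67% of protein-coding genes.

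About as many of the Hox peaks lay away from start sites. In control 26 of 48 peaks (54.2%) and in Ngn3-OE 27 of 50 (54.0%) lay within 1 kb of the start of any annotated gene, against 23.7% and 23.1% of each whole list. Start-site peaks usually rank high, and in the whole lists their median rank percentile was 71.3 in control and 70.3 in Ngn3-OE, with a median of 19 tags. Hox start-site peaks had a median rank percentile of 50.6 and 43.7 and a median of 8 and 7 tags. The other Hox peaks were of the same size, with medians of 8.5 tags over 22 peaks in control and 7 tags over 23 peaks in Ngn3-OE.

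The strongest peaks of each cluster mostly lay between genes or in introns of overlapping transcripts, and all of them were shared. In Hoxa, region 7 was the strongest in both libraries, with 19 tags in control and 22 in Ngn3-OE, in an intron of Hoxa3 1368 bp from its start. Region 10, 3109 bp upstream of the nearest basic transcript start of Hoxa7, had 16 and 17 tags, and region 11 is the Hoxa10 peak already given. In Hoxb, region 9, between Hoxb9 and Hoxb8, had 14 tags in each library, and region 11, in the UTR of Hoxb8, had 15 in each.

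In Hoxd, region 15 was the strongest control peak of all 4 clusters, with 31 tags and a rank percentile of 90.3. It had 16 tags and a rank percentile of 76.2 in Ngn3-OE. Its summit lay 30 bp from the start of Hoxd3os1, an antisense transcript of the Hoxd3 locus. Region 8 is the Hoxd10 peak, and region 5, 1835 bp upstream of Hoxd12, had 20 tags in control and 18 in Ngn3-OE. Region 19, in an exon of the noncoding RNA Haglr, had 13 tags in control and 17 in Ngn3-OE and was among the 3 strongest of the cluster in Ngn3-OE only. In Hoxc, region 1 is the Hoxc13 peak. Region 6, 8761 bp downstream of the Hoxc8 start and within the wider gene model of Hoxc6, had 22 tags in control and 10 in Ngn3-OE, and region 5, 3012 bp upstream of Hoxc8, had 19 and 12.

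Of all 46 annotated noncoding genes with a start inside the clusters, 10 in each library (21.7%) had a peak within 1 kb of a start, against 24.4% of 16239 noncoding genes in control and 25.3% in Ngn3-OE. The named long noncoding RNAs and microRNAs were looked at singly. Hotairm1, the myeloid antisense RNA at the anterior end of Hoxa, had 9 tags in control and 10 in Ngn3-OE within 1 kb of its start, at a peak that also lay at the start of a gene outside the 38 listed. Hoxaas3 had no peak in control and 4 tags in Ngn3-OE. Hottip, Hotair, Hoxb3os, Hoxb5os, Hoxa11os and Hoxaas2 had none in either library, nor did the microRNA genes Mir10a, Mir10b, Mir196a-1, Mir196a-2 and Mir196b. Hottip and Hotair are long noncoding RNAs known for acting on Hox chromatin, and the nearest peaks to their starts were 1878 and 4280 bp away in control and 1817 and 18160 bp away in Ngn3-OE.

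Each cluster had stretches with no peak in either library. Their lengths were not compared with such stretches elsewhere in the genome, where the whole lists held 4.3 and 4.58 peaks per 100 kb. The longest was in Hoxb, 59.4 kb at chr11:96318904-96378256, which holds all starts of Hoxb1, Hoxb2 and Hoxb3, among them Hoxb1, a direct target of retinoic acid in the hindbrain, and reaches the end of the flank. The longest in Hoxc was 25.3 kb (chr15:103014474-103039734), with the starts of Hoxc4. In Hoxa it was 18.6 kb (chr6:52221906-52240461), with Hoxa9, and in Hoxd 18.5 kb (chr2:74716082-74734578), with Hoxd4.

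Most Hox peaks were shared between the libraries, at rates near those of the whole lists. Sharing means an overlap of 1 bp or more with some peak called in the opposite library. In control 36 of 48 peaks were shared (75.0%, 95% Wilson interval 61.2 to 85.1) and 12 had no counterpart (25.0%), against 21.7% of all control peaks with none. In Ngn3-OE 36 of 50 were shared (72.0%, interval 58.3 to 82.5) and 14 had no counterpart (28.0%), against 26.6% of all Ngn3-OE peaks. Within Hoxa 9 of 10 control peaks but 9 of 14 Ngn3-OE peaks were shared. Within Hoxc 4 of 8 and 4 of 6 were shared, within Hoxb 10 of 13 in each library, and within Hoxd 13 of 17 in each.

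Peaks found in 1 library were small, as in the lists as a whole. The 12 control peaks held from 3 to 8 tags and the 14 Ngn3-OE peaks from 4 to 7, with a median of 5 in each library, which was also the median of all such peaks of each list. Those with a −log10 q of at least 5 numbered 4 in each library, 12.5% of the 32 Hox control peaks past that threshold and 12.1% of the 33 in Ngn3-OE, against 7.89% and 10.3% in the whole lists. In control they were Hoxa region 12 between Hoxa11 and Hoxa13 with 7 tags (chr6:52253076-52253169), Hoxc region 2 downstream of Hoxc12 with 7 tags (chr15:102943398-102943491), Hoxc region 9 in the coding exon of Hoxc5 with 8 tags (chr15:103014334-103014473), and Hoxc region 10 downstream of Hoxc4 with 6 tags (chr15:103039735-103039809). In Ngn3-OE they were Hoxa region 3 in the UTR of Hoxa3 with 6 tags (chr6:52172626-52172794), Hoxa region 6 upstream of Hoxa4 with 7 tags (chr6:52197436-52197525), Hoxb region 7 upstream of Hoxb9 with 6 tags (chr11:96270112-96270197), and Hoxc region 3 upstream of Hoxc10 with 6 tags (chr15:102965849-102966005). The tags of the other library at these places are not in its list, so the size of the difference is unknown.

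Tags at the shared Hox peaks were close between the libraries. Each library's tags were divided by its lowest background, 0.2615 tags in control and 0.2571 in Ngn3-OE, and the median log2 ratio of Ngn3-OE to control was 0.02 over 36 shared Hox peaks, against 0.12 over 91741 shared peaks. In tags as counted, 11 of the 36 were higher in Ngn3-OE (30.6%), 8 equal and 17 lower (47.2%), against 52.9% higher and 37.9% lower over all shared peaks. After division, the 8 equal peaks had a ratio of 1.02, so that 19 of 36 (52.8%) lay above 1, against 62.3%. At least 2-fold higher in Ngn3-OE were 3 Hox peaks (8.3%), against 7.29% of all shared peaks, and at least 2-fold lower was 1 (2.8%), against 3.99%. Both shares lay near the background.

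The 3 higher peaks rested on few control tags. Hoxb region 6, 2419 bp upstream of Hoxb9, had 3 tags in control and 9 in Ngn3-OE, a ratio of 3.05 with an exact binomial 95% interval of 0.761 to 17.5. Its printed window is the poorest in CpG of those shown. Hoxa region 14, at the start of Hoxa13, also had 3 and 9 tags, so its ratio and interval were the same. Hoxd region 17, in Hoxd3, had 5 and 10 tags, a ratio of 2.03 with an interval of 0.633 to 7.58. All 3 intervals included 1.

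The single lower peak was Hoxc region 6, with 22 tags in control and 10 in Ngn3-OE, a ratio of 0.462 with an interval of 0.195 to 1.02. All 4 shared Hoxc peaks had fewer tags in Ngn3-OE than in control, where 37.7% of all shared peaks had a ratio below 1, with a median log2 ratio of −0.76, and the interval of each included 1. The other 3 were Hoxc region 1 at Hoxc13 (ratio 0.881, interval 0.501 to 1.54), region 4 at Hoxc10 (0.542, 0.199 to 1.36) and region 5 upstream of Hoxc8 (0.642, 0.284 to 1.39). The medians of the other clusters were −0.20 over 9 peaks in Hoxa, 0.02 over 10 in Hoxb and 0.02 over 13 in Hoxd.

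Over the 36 shared Hox peaks, 0 intervals lay above 1, against 3.69% of all shared peaks, and 1 lay below 1 (2.8%), against 2.3%. This was Hoxd region 15 at Hoxd3os1, with 31 tags in control and 16 in Ngn3-OE, a ratio of 0.525 with an interval of 0.268 to 0.989. The other strong Hoxd peaks were closer between libraries, with ratios of 0.915 (interval 0.456 to 1.82) at region 5, 0.920 (0.468 to 1.80) at region 8 and 1.33 (0.608 to 2.98) at region 19.

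**Figure D5:**
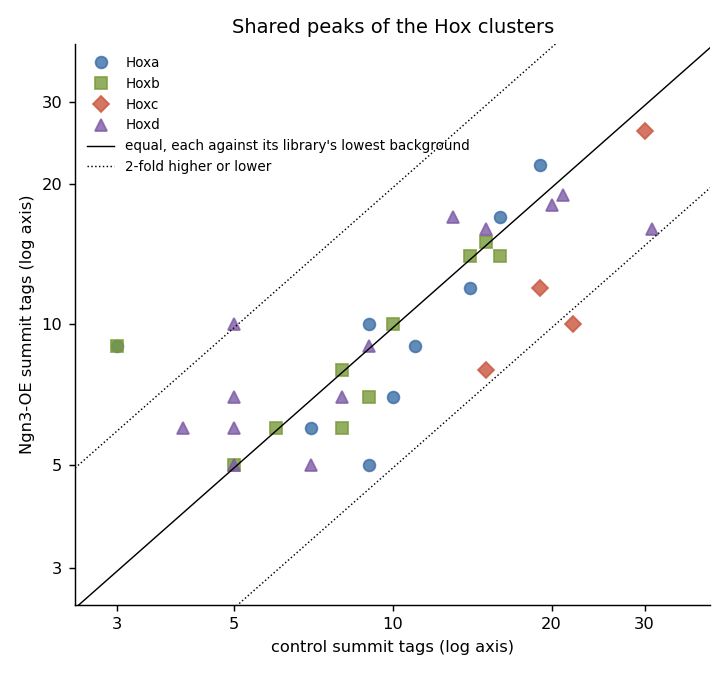
Summit tags of the 36 shared Hox peaks in control and Ngn3-OE on log axes, by cluster (some points coincide). The solid line marks equal tags after division by each library's lowest background and the dotted lines 2-fold, with 3 peaks on or above the upper line (2 of them at 3 and 9 tags) and 1, a Hoxc peak at 22 and 10 tags, below the lower line.

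Motifs were counted on both strands in the 201 bp around each summit. The consensus of CTCF, the insulator protein known to divide Hox clusters into domains, was taken as 12 letters and had 0 matches in the 62 Hox regions, which allows a share of up to 4.84% by a floor of 3 counts, against 4.38% of all control peaks and 4.14% of all Ngn3-OE peaks, so that a shortfall was not detectable. A 7-letter core of the motif, AGNNGGC with A or G for its first N and T or G for its second, chosen after the sequences had been seen, matched 13 of 48 control peaks (27.1%) and 14 of 50 Ngn3-OE peaks (28.0%), against 27.9% of each whole list. Of the sequences printed above, Hoxb region 9 and Hoxd region 5 hold the form AGATGGC (on the minus strand in Hoxd) and Hoxc region 5 holds AGGTGGC, each within 10 bases of the summit. The core was chosen with these sequences in view, and matches that near a summit were not counted over all peaks. The E-box core CATCTG, a form bound by proneural factors, matched 5 of 48 control Hox peaks (10.4%) and 3 of 50 in Ngn3-OE (6.0%), against 21.3% and 22.6% of all peaks. Among Hox peaks at start sites it matched 1 of 26 in control and 0 of 27 in Ngn3-OE, which allows a share of up to 11.1%, against 10.3% and 10.7% of start-site peaks in the whole lists. Among Hox peaks away from start sites it matched 4 of 22 (18.2%) and 3 of 23 (13%), against 24.7% and 26.2%.

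The remaining motifs had few matches. SOX motifs (CCATTGT or CCTTTGT) matched 3 peaks in each library (6.2% and 6.0%), against 8.80% and 7.41% of all peaks. At start sites they matched 3 of 26 Hox peaks in control (11.5%) and 2 of 27 in Ngn3-OE (7.41%), against 4.91% and 4.47%. Away from start sites they matched 0 of 22, which allows up to 13.6%, and 1 of 23 (4.35%), against 10% and 8.29%. The joint HOX and PBX site TGATTNAT matched 0 of 48 control peaks, which allows a share of up to 6.25%, and 3 of 50 in Ngn3-OE (6%), against 2.57% and 2.51%. Those 3 peaks held from 4 to 5 tags. Of them 2 were among the 27 start-site Hox peaks (7.41%), against 0.881% of start-site peaks in the whole Ngn3-OE list. The homeodomain site TAATTA matched 0 of 26 start-site Hox peaks in control, which allows a share of up to 11.5%, and 1 of 27 in Ngn3-OE, against 2.09% and 2.0% of start-site peaks in the whole lists. Away from start sites it matched 0 of 22 and 0 of 23 Hox peaks, which allows up to 13.6% and 13%, against 9.92% and 9.05%, so that a shortfall was not detectable. Over all Hox peaks it matched 0 of 48 in control, which allows up to 6.25%, and 1 of 50 in Ngn3-OE (2%), against 8.06% and 7.43%. These shares lay below the whole lists, but more of the Hox peaks lay at start sites, where the site is rarer. A match is a string of letters and says nothing of binding.

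The genes that act with or on Hox genes had start-site peaks with higher median tags than the 8 of the Hox genes, although the ranges overlapped, and for cofactors and Polycomb genes they were about as frequent and, by the median, about as large as those of other genes with a CpG-rich start (95.8% and 96.0%, with a median of 51 tags in each library). All 8 listed HOX cofactors (Pbx2 to Pbx4, Meis1 to Meis3, Pknox1 and Pknox2) had a start-site peak in each library, with medians of 50 tags in control and 54.5 in Ngn3-OE. They ranged in control from 28 tags at Pbx2, below the 30 of Hoxc13, to 114 at Pknox1, which had 109 in Ngn3-OE. Of 22 Polycomb and trithorax genes, 21 had a peak in each library, with medians of 57 and 47 tags. Ezh2, the main H3K27 methyltransferase of Polycomb complex 2, had 110 and 114 tags, and the demethylase gene Kdm6b had no peak. Of 9 genes for retinoic acid receptors and enzymes, 7 had a peak in each library, with medians of 20 and 22 tags, below the 43 of all protein-coding genes with a peak. The receptor genes Rara, Rarb and Rarg had 68, 62 and 20 tags in control and 60, 34 and 17 in Ngn3-OE. The synthesis genes Aldh1a1, Aldh1a2 and Aldh1a3 had 15, 8 and 31 tags in control and 21, 11 and 22 in Ngn3-OE. Of the genes for retinoic acid breakdown, Cyp26b1 had 20 and 24 tags, while Cyp26a1 and Cyp26c1 had no peak. Tags were thus lower in Ngn3-OE at 4 of these genes and higher at 3.

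Start-site peaks of other homeobox genes varied widely within each list. All 7 listed retinal homeobox genes had a start-site peak in each library, where 64.7% and 65.1% of all protein-coding genes had one, with medians of 72 tags in control and 61 in Ngn3-OE. Rax, needed to form the eye field, had 91 and 94 tags, and Six6 had 88 and 90, while Otx2 had 16 and 26. Tags were higher in Ngn3-OE at 4 of the 7 genes and lower at 3 (Pax6, Six3 and Lhx2). Of 16 other homeobox genes, a mixed list with genes of the trunk, gut and limb and of the brain (among them Gsx1, Gsx2, Gbx2 and En1), 11 had a peak in control and 9 in Ngn3-OE, with medians of 8 and 7 tags, where Hox genes had 8 and 8. Evx1, which lies next to the Hoxa cluster, had 3 and 5 tags, while Evx2, next to Hoxd, had none. Nkx6-1, with 71 and 58 tags, and Msx1, with 26 and 20, were the largest of this list and lay within the range of the retinal genes in control.

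The sorted cells were checked against markers in the same way. A start-site peak was the usual state of a gene (64.7% of protein-coding genes in control and 65.1% in Ngn3-OE, with a median of 43 tags), so that a called peak at a marker does not by itself show the cell type. All 8 late progenitor markers had a start-site peak in each library, with medians of 48.5 tags in control and 43.5 in Ngn3-OE and a lowest value at Ccnd1 of 25 and 19, where genes with a CpG-rich start had a median of 51. Of other cell types, 2 of 2 rod markers had a peak (43 and 88 tags in control at Nrl and Crx, and 63 and 118 in Ngn3-OE), and so did 2 of 2 ganglion cell markers (9 and 36 tags in control at Pou4f2 and Isl1, and 21 and 38 in Ngn3-OE). The part of a change in cell types in the Hox values was not tested. A peak was also present at 3 of 3 markers of fibroblasts and mesenchyme (10, 15 and 35 tags in control at Col1a1, Twist1 and Pdgfra, and 9, 13 and 23 in Ngn3-OE). The cells were sorted for GFP from dissociated retinas, and the part of mesenchymal cells in the Hox peaks was not tested. Of the microglia markers Aif1, Cx3cr1 and Csf1r none had a peak, of the endothelial markers 1 of 3 (Cldn5, 6 and 10 tags), and of the pigment epithelium markers 1 of 3 (Mitf, 128 and 140 tags).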

How the data were processed

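ATAC-seq was run on 1 library each of control and Ngn3-OE cells. According to the study's methods, reads were trimmed with Trimmomatic, aligned to mm10 with Bowtie2, and cleared of duplicates (Picard 2.20.4), mitochondrial reads (SAMtools 1.6) and blacklisted regions (bedtools 2.30.0). Fragments up to 120 bp were kept, ends were shifted by +4 and −5 bases (deepTools 3.1.3), and MACS2 2.2.4 called peaks in each library at q under 0.05. Long nucleosomal fragments are therefore not represented.

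The authors' deposited peak lists hold an integer score, a fold enrichment over local background (a ratio), the −log10 p and −log10 q of the summit, and the summit offset. Sequencing depth is unknown from these files. They held 128853 lines in control and 136761 in Ngn3-OE, of which 159 and 150 lay outside chromosomes 1 to 19, X and Y and were left out. Lines with the same interval were merged. Summit tags and background were solved as the whole tag number that gives the deposited fold enrichment and −log10 p (Poisson), with a residual of at most 0.0019, and the solver was checked on simulated data. Start sites and features came from the GENCODE M21 basic annotation, sequence from GRCm38 (RefSeq), which is mm10. Ratios carry exact (Clopper-Pearson) and shares Wilson intervals at 95%. PCR-copied reads are not independent molecules, so intervals cover counting error only. Values came from Python 3.11.15.

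Each gene with a start-site peak was named. Peaks were named when among the 3 with the highest −log10 q of a cluster and library, when in 1 library with −log10 q of at least 5, or when past 2-fold. The members and gene lists were chosen with earlier results of these data known. Some genes of the lists and 1 peak among the strongest are not reported here, and the lists were counted without those genes. The alternatives tried were a −log10 q of at least 5, stricter overlap, flanks of 0 and 50 kb, unmerged lines, start-site windows of 500 bp and 3 kb, other folds and scaling, another rank, and a narrower motif window.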

Additional observations from a re-analysis of the deposited data

How the results depend on the processing

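Of 44 values recomputed under alternatives, 38 stayed within 1.5 times (counts) or within the 95% interval (shares and medians) of the reported value. With a −log10 q of at least 5 in both lists, Ngn3-OE Hox peaks fell from 50 to 33 and control peaks from 48 to 32, Hox genes with a control start-site peak fell from 18 to 11 (Ngn3-OE from 15 to 11), and shared peaks at least 2-fold higher in Ngn3-OE from 3 to 0 (4.16% of all peaks shared at that threshold), because the stricter lists leave out small peaks. The shared fraction was then 78.1% and 75.8%, against 81.7% and 77% of the whole lists. At a fold of 1.5 in place of 2, 5 of 36 shared Hox peaks were lower in Ngn3-OE in place of 1, and 4 were higher, against 11.4% lower and 20.6% higher over all shared peaks. With 50 bp on each side of the summit, the E-box core was found in 4.1% of the Hox peaks of both libraries together in place of 8.2% (all peaks 13.9% and 22.0%), since the window is narrower. The shorter 7-letter CTCF core, chosen after the data had been seen, matched 27.6% of Hox peaks where the consensus matched 0.0% (all peaks 27.9% and 4.3%). The CpG-rich comparison, the starts of every transcript and the count of CTCF matches by distinct region were also added after the data had been seen. No paired analysis was possible because each group has 1 library, and no replicate could be left out. The precision is limited by the few tags per Hox peak.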
